A study of Mus musculus with 8 samples.

Results

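Lipid droplet coat proteins, fatty acid carriers and the transcription factors of fat storage were followed across fibroblasts sorted from the adult mouse lung. The set was Plin1, Plin2, Plin3, Plin4, Pparg, Lpl, Cd36, Fabp4, Fabp5 and Cebpa, taken by symbol or older symbol from the probe annotation. All 10 genes were on the array, with 11 probes among them, out of 24046 named genes. Fibroblasts sorted as 3 types (A, B and C) were set against pulmonary single cells, the lung cell suspension that was stained for the sort. The donors were untreated adult female mice of the C57BL/6 strain, 12 to 16 weeks old, and each sample held 50000 cells. The stain covered Pdgfra, Sca-1 and Thy-1 together with lineage antigens of endothelium (CD31, CD146 and Lyve-1), blood cells (CD45 and TER119) and epithelium (E-cadherin). The combination that defined each type, and how many mice stood behind a sample, are not given in the sources used here. There were 2 independently prepared samples per group and 1 single-colour Agilent array per sample, 8 arrays in all, and p-values rest on the spread between these pairs.

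Fat is stored in droplets whose surface is covered by perilipins, which control the access of lipases. Fatty acids reach the cell through lipoprotein lipase, which frees them from circulating lipoproteins, through the scavenger receptor Cd36 at the membrane, and through small binding proteins of the Fabp family in the cytosol. Pparg and Cebpa are the transcription factors that drive this programme in adipocytes. In the lung, droplets are described in lipid-storing interstitial fibroblasts, while alveolar macrophages, capillary endothelium and alveolar type 2 cells are also known to use several of the same genes.

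The sequences before the start sites of 3 genes are shown because these genes had the largest fall of the set (Cd36), the fall of a perilipin (Plin2) and the only rise (Plin3). Each is the 250 bases before the gene's start in RefSeq (GRCm38.p6), written 5′ to 3′ on the gene's own strand. Capitals mark the nuclear receptor core AGGTCA, the GC box GGGCGG and the CCAAT box CCAAT, on either strand.
Cd36 (chr5:17835897-17836146, minus strand): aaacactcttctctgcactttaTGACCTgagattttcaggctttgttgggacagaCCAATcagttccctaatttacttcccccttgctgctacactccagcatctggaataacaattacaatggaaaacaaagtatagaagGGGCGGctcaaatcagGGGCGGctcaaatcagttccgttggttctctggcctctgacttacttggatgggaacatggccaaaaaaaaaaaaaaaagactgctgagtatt
Plin2 (chr4:86670060-86670309, minus strand): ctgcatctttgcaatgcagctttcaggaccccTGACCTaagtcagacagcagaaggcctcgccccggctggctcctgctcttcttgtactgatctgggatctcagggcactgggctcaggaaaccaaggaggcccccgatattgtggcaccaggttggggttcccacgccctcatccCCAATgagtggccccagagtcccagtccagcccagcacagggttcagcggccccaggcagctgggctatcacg
Plin3 (chr17:56290512-56290761, minus strand): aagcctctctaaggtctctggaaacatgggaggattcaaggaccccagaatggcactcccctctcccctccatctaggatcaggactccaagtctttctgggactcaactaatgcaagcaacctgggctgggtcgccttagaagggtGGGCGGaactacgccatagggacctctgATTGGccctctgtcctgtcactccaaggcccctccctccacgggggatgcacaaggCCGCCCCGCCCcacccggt
The Cd36 and Plin2 windows each held 1 AGGTCA core on the opposite strand, its first base at position -228 and -218 from the start. Cd36 also held 2 GC boxes, at -109 and -93. Plin3 held no AGGTCA core but 3 GC boxes, 2 of which overlapped by 1 base next to the start. AGGTCA occurred in 14.0% of 32851 mouse promoters of this length, GGGCGG in 32.7% and CCAAT in 33.8%. Promoters of Plin1, Plin4, Cebpa and 3 starts of Pparg were searched too; Lpl, Fabp4 and Fabp5 were not. Of the 3 starts of Pparg, 2 held AGGTCA, at -28 and -9. A direct repeat of AGGTCA spaced by 1 base, which the receptor encoded by Pparg is known to bind, was in none of these windows and in 0.0335% of all promoters. The palindrome TTGCGCAA of the C/EBP factors was likewise in none of them and in 0.164% of all. These matches describe letters, and binding was not measured.

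Signals below are log2 of the background-subtracted spot intensity minus the array's 75th percentile, called scaled log2 signal, so that 0 is the level exceeded by 25% of probes. Differences are fibroblasts minus pulmonary cells, or the type named first minus the other, and levels of different probes are not comparable. The 75th percentile of intensity lay between 110 and 182 on the fibroblast arrays, and at 126 and 250 on the pulmonary arrays. Arrays of the A-type and B-type pairs correlated at 0.985 each over all genes, those of C-type at 0.947 and the pulmonary pair at 0.916. Within a pair, signals lay at least 2-fold apart for 5.14% of genes in A-type, 5.44% in B-type, 20.7% in C-type and 31.4% in pulmonary cells. Both pulmonary arrays lay on one slide and all 6 fibroblast arrays on another, so slide and cell population cannot be told apart in any comparison with pulmonary cells; comparisons between fibroblast types lay within 1 slide.

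The fibroblast label held for the sorted cells. All 8 pan-fibroblast markers, among them Col1a2, Dcn and Lum, were called higher in fibroblasts, and their summed linear signal was 637 to 1158 times the 75th percentile on fibroblast arrays, against 82.3 and 132 on pulmonary arrays. Markers of other lung cells moved the other way. The lipid genes described below were compared over the same arrays and went in both directions. Summed alveolar macrophage markers were 3.95 to 5.50 in fibroblasts against 400 and 520 in pulmonary cells, with 12 of 12 called lower and Itgax, Fabp1, Atp6v0d2 and Mrc1 not well above background on any fibroblast array. Capillary endothelial markers summed to 10.5 to 14.7 in fibroblasts against 123 and 149 in pulmonary cells, with 11 of 12 called lower. Alveolar type 2 markers summed to 10.1 to 20.2 in fibroblasts against 284 and 306 in pulmonary cells, with 9 of 10 called lower and Napsa at background on all fibroblast arrays. Of these markers, 6 macrophage, 2 endothelial and 2 type 2 genes, and 3 of the blood cell list, were kept for testing only through pulmonary cells, so they had to be lower. All 6 tested platelet and erythroid markers were called lower too, their sum being 0.515 to 2.11 in fibroblasts against 84.3 and 117 in pulmonary cells. The part of these cells in the lipid gene differences was not tested. In bulk samples such as these, fewer cells of a type and less RNA per cell cannot be told apart.

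Against pulmonary cells, most of the lipid genes were lower in fibroblasts. Averaged over the 3 types, 7 of 10 were called lower (Plin2, Pparg, Cebpa, Cd36, Lpl, Fabp4 and Fabp5), 1 was called higher (Plin3), and Plin1 and Plin4 were not called, by limma at an adjusted p below 0.05. Of all 17508 genes tested, 36.7% were called, 16.2% lower and 20.6% higher. The median difference of the 10 genes was -2.27, against 0.10 over all genes. Cd36 was kept for testing only through its pulmonary signal, so it had to differ, and its call supports nothing here or in the counts by type. The other 9 genes had 1 called higher and 6 lower, with a median of -1.89.

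**Figure D1:**
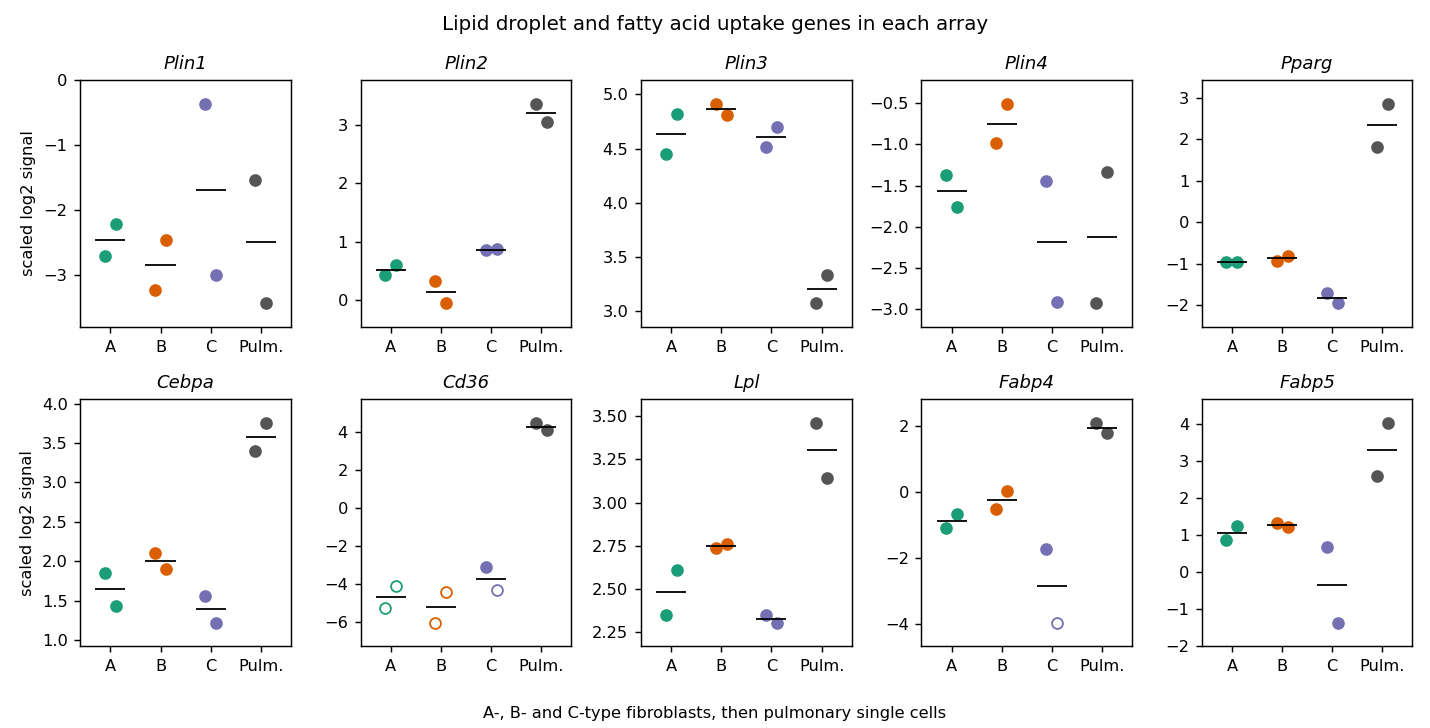
Scaled log2 signal (vertical axis, a scale of its own for each gene) of the 10 genes on each of the 8 arrays. A-, B- and C-type fibroblasts stand left of pulmonary single cells, points are arrays, lines are group means, and open points were not well above background. For Plin3 all 6 fibroblast arrays lie above both pulmonary arrays. Plin2, Pparg, Cebpa, Cd36, Lpl, Fabp4 and Fabp5 show the opposite order, that of Cd36 being built in by the filter. How many of all genes separate in this way was not counted.

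Of the perilipins, Plin2 and Plin3, the members that coat droplets in most cell types, moved in opposite directions. Plin2 (adipophilin) stood at 0.43 and 0.60 in A-type, 0.32 and -0.05 in B-type and 0.86 and 0.87 in C-type fibroblasts, against 3.37 and 3.05 in pulmonary cells. Every fibroblast array was thus more than 2 log2 units below both pulmonary arrays. The difference was -2.70 ± 0.23 (SE, limma adjusted p = 0.0002), 6.51-fold lower, with -2.69 in A-type, -3.07 in B-type and -2.34 in C-type fibroblasts, each called. Plin3 (TIP47), a cytosolic perilipin that moves onto new droplets and also binds the mannose 6-phosphate receptor, stood at 4.45 and 4.82 in A-type, 4.91 and 4.81 in B-type and 4.51 and 4.70 in C-type fibroblasts, against 3.08 and 3.34 in pulmonary cells. The groups did not overlap. Plin3 rose by 1.49 ± 0.23 (SE, limma adjusted p = 0.0027), a 2.82-fold difference, with 1.43 in A-type, 1.66 in B-type and 1.40 in C-type fibroblasts, each called. The A-type call was lost without A-type sample 2 (1.24, limma adjusted p = 0.106) and the B-type call without B-type sample 1 (1.60, limma adjusted p = 0.0557).

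Plin1 and Plin4, the perilipins typical of adipocytes, were dim and scattered. Plin1 gave -2.71 and -2.22 in A-type, -3.24 and -2.46 in B-type and -0.37 and -3.02 in C-type fibroblasts, against -1.55 and -3.44 in pulmonary cells. The pulmonary pair alone spanned nearly 2 log2 units and the 2 C-type arrays even more, so the groups overlapped. Its difference was 0.16, with a 95% interval of -1.64 to 1.96 (limma adjusted p = 0.88). Plin4 gave -1.37 and -1.76 in A-type, -0.99 and -0.51 in B-type and -1.45 and -2.92 in C-type fibroblasts, against -2.93 and -1.33 in pulmonary cells. B-type arrays were the highest, but the difference over all types was 0.63, with an interval of -0.62 to 1.89 (limma adjusted p = 0.39). These intervals leave room for changes of more than 2-fold either way for Plin1. Plin4 in B-type fibroblasts was called higher only without pulmonary sample 2 (2.18, limma adjusted p = 0.044).

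Both transcription factors were lower in every fibroblast type. Pparg, the nuclear receptor of adipocyte differentiation and of alveolar macrophage maturation, was printed in 10 spots per array and measured with little spot scatter. It stood at -0.95 and -0.95 in A-type, -0.93 and -0.81 in B-type and -1.70 and -1.95 in C-type fibroblasts, against 1.82 and 2.86 in pulmonary cells. No fibroblast array came near the pulmonary pair, and C-type arrays were the lowest. Pparg fell by 3.55 ± 0.31 (SE, limma adjusted p = 0.00022), 11.7-fold lower, with 9.78-fold in A-type, 9.22-fold in B-type and 17.9-fold in C-type fibroblasts. Cebpa, a leucine zipper factor of adipocytes, myeloid cells and lung epithelium, stood at 1.85 and 1.44 in A-type, 2.11 and 1.90 in B-type and 1.57 and 1.23 in C-type fibroblasts, against 3.40 and 3.75 in pulmonary cells. The order of the group means, with B-type above A-type above C-type, was that of Pparg. Cebpa was 3.71-fold lower in fibroblasts, a difference of -1.89 ± 0.25 (SE, limma adjusted p = 0.0014), and was called lower in each type, at -2.18 in C-type, -1.93 in A-type and -1.57 in B-type fibroblasts. The B-type call rested on both B-type arrays, with an adjusted p of 0.0585 without sample 1 and 0.0825 without sample 2 by limma.

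Cd36, the membrane receptor for long-chain fatty acids and oxidised lipoproteins, showed the largest gap of the set. It read -5.30 and -4.11 in A-type, -6.05 and -4.44 in B-type and -3.12 and -4.34 in C-type fibroblasts, against 4.48 and 4.12 in pulmonary cells. Of the 6 fibroblast arrays, C-type sample 1 alone (-3.12) was well above background, while both pulmonary arrays were bright. As a floor, the lowest signal of any probe well above background on each array was taken. Single probes not well above background can lie above it, so folds given as at least, here and below, are approximate. With this floor, Cd36 was at least 261-fold lower in fibroblasts than in pulmonary cells. The bound was at least 321-fold for A-type and at least 292-fold for B-type fibroblasts. In C-type fibroblasts, where 1 of 2 arrays measured it, Cd36 was 262-fold lower on the measured means and 190-fold lower with the floor.

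The cytosolic carriers Fabp4 and Fabp5 were lower as well, with more spread. Fabp4, the carrier of adipocytes and of capillary endothelium, stood at -1.09 and -0.66 in A-type, -0.52 and 0.03 in B-type and -1.73 and -3.97 in C-type fibroblasts, against 2.08 and 1.80 in pulmonary cells. The groups did not overlap, and C-type sample 2 was not well above background. Fabp4 fell by 3.26 ± 0.55 (SE, limma adjusted p = 0.004), 9.61-fold lower. By type the difference was -2.82 in A-type (limma adjusted p = 0.022), -2.19 in B-type (0.049) and -4.79 in C-type fibroblasts (0.0026), where 1 of 2 arrays measured it and the fold was 27.6 on measured means or 22.9 with the floor. The A-type call was lost without any 1 of its own or the pulmonary arrays, and the B-type call without any 1 of the A-type, B-type or pulmonary arrays. The B-type call was also lost with median scaling (-1.84, limma adjusted p = 0.0666) and the authors' table (0.0662). No filter (0.0758), testing every probe (0.0653) and the replicate block (0.0625) lost it too. Fabp5, an epidermal-type carrier that macrophages and epithelium also use, stood at 0.88 and 1.24 in A-type, 1.34 and 1.22 in B-type and 0.68 and -1.36 in C-type fibroblasts, against 2.60 and 4.02 in pulmonary cells. Again C-type sample 2 was the lowest array. Fabp5 was 6.26-fold lower in fibroblasts, a difference of -2.65 ± 0.58 (SE, limma adjusted p = 0.012), but without pulmonary sample 2 this became -1.94 (limma adjusted p = 0.0777). It was called lower in C-type fibroblasts (-3.65, limma adjusted p = 0.0097), while A-type (-2.25, 0.056) and B-type (-2.04, 0.072) missed the threshold. The A-type difference was called without pulmonary sample 1 (-2.97, limma adjusted p = 0.0487), and both A-type and B-type differences were called without either C-type array, at an adjusted p of 0.0202 and 0.0266. Both were also called with the percentile over bright probes, quantile normalization, normexp and a trended robust variance, at limma adjusted p-values of 0.0156 to 0.0362 in A-type and 0.0221 to 0.0474 in B-type fibroblasts, and the A-type difference with the stricter filter (0.0418) and the 4 compared arrays alone (0.0475). Near-identical copies of Fabp5 exist elsewhere in the mouse genome, and a single probe may not separate them.

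Lpl, the lipase that releases fatty acids at the vessel wall, was the member that differed least among those called, and it was well above background on every array. It stood at 2.35 and 2.61 in A-type, 2.73 and 2.76 in B-type and 2.35 and 2.30 in C-type fibroblasts, against 3.46 and 3.14 in pulmonary cells. The groups did not overlap, and the difference was -0.79 ± 0.22 (SE, limma adjusted p = 0.032), 1.72-fold lower. Only C-type fibroblasts passed on their own (-0.98, limma adjusted p = 0.037), against -0.82 (0.066) in A-type and -0.56 (0.17) in B-type fibroblasts, the A-type difference being called without pulmonary sample 2 (-0.98, limma adjusted p = 0.0263). The A-type difference was also called with the percentile over bright probes, quantile normalization, normexp, the trended robust variance and the stricter filter (limma adjusted p 0.0192 to 0.04999), and the B-type difference with quantile normalization (0.0461). Lpl alone of the set had a further probe, shown here because it gave a different outcome:
Lpl, dimmer probe: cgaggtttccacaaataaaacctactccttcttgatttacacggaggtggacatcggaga
That probe stood at 1.25 and 1.02 in A-type, 1.31 and 1.56 in B-type and 1.15 and 0.98 in C-type fibroblasts, against 1.51 and 1.85 in pulmonary cells. Here B-type sample 2 lay above pulmonary sample 1, and the difference of -0.47 ± 0.24 was not called when every probe was tested (limma adjusted p = 0.19), where 27.1% of probes were. With arrays centred on their medians, which raised the median difference of all genes to 0.46, the Lpl difference on the brighter probe was -0.43 (limma adjusted p = 0.203). Its call was also lost without pulmonary sample 1 (-0.63) and without any 1 of the A-type or B-type arrays. The authors' table (limma adjusted p = 0.211), no filter (0.0633) and the replicate number as a block (0.0584) lost it too. The C-type call was lost without any 1 array other than pulmonary sample 2. It was also lost with median scaling (limma adjusted p = 0.184), the authors' table (0.191), no filter (0.0731) and every probe tested (0.0543). The replicate block (0.067) and the 4 compared arrays alone (0.224) lost it too.

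**Figure D2:**
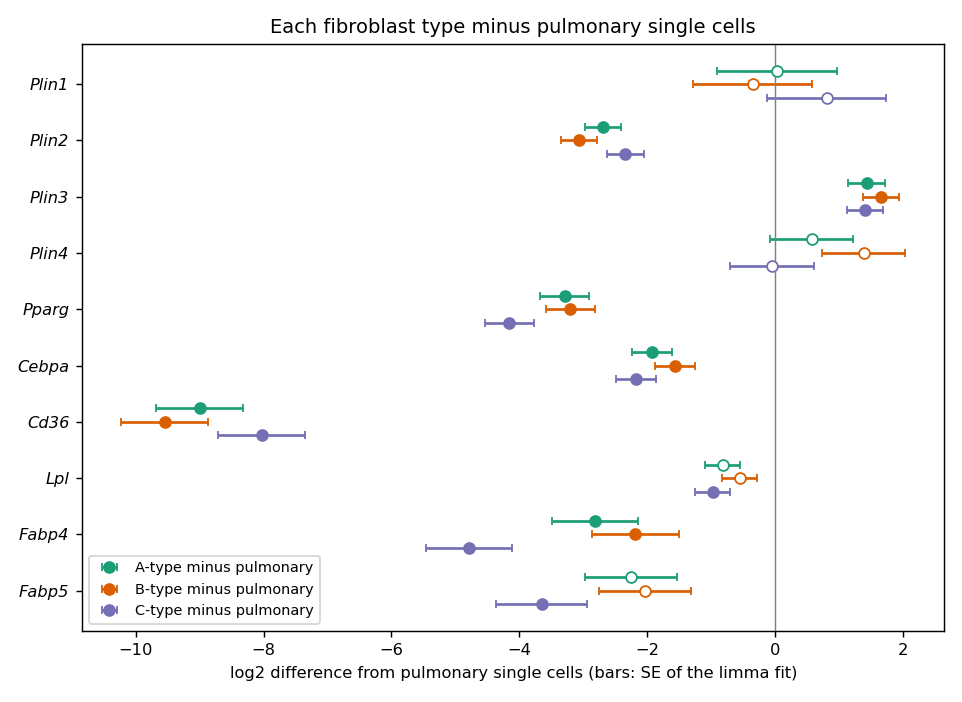
Log2 difference of A-, B- and C-type fibroblasts from pulmonary single cells (horizontal axis) for the 10 genes, with the SE of the limma fit as bars. Filled points were called at an adjusted p below 0.05; Cd36 values are measured means below background in A-type and B-type fibroblasts. Plin3 lies right of 0 in all 3 types, and Plin2, Pparg, Cebpa, Cd36 and Fabp4 lie left of it as filled points in all 3.

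Counted by type, 6 of the 10 genes were called in A-type fibroblasts (1 higher, 5 lower), where 26.7% of all genes were called, 14.9% higher and 11.8% lower. In B-type fibroblasts 6 were called (1 higher, 5 lower), against 29.2% of all genes, 16.3% higher and 12.9% lower. This B-type count fell when B-type sample 1 was left out, and so did the number of calls over all genes. In C-type fibroblasts 8 were called (1 higher, 7 lower), against 28.6% of all genes, 14.9% higher and 13.7% lower. Cd36 is among the genes counted lower in each type. These 3 comparisons share the pulmonary arrays, so their counts are not independent.

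Between the fibroblast types, none of the 10 genes was called by limma in any of the 3 comparisons. Over all genes, 0% were called for A-type minus B-type, 0.417% for A-type minus C-type and 2.43% for B-type minus C-type. At an unadjusted p below 0.05 the members numbered 0, 1 and 3 in that order, against 568 (3.24%), 2264 (12.9%) and 2641 (15.1%) of all genes. The 3 members at B-type minus C-type were Fabp4, Plin2 and Pparg. Fabp4 had the widest gap, 2.60 higher in B-type than in C-type fibroblasts with an interval of 1.00 to 4.20 (limma adjusted p = 0.12), and 1.97 higher in A-type than in C-type with an interval of 0.37 to 3.57 (limma adjusted p = 0.29). Both rest on C-type sample 2, whose Fabp4 was not well above background. Without it the differences were 1.48 for B-type minus C-type (limma adjusted p = 0.198) and 0.85 for A-type minus C-type (0.55). Against C-type sample 2 alone, taken at its floor, Fabp4 was at least 9.02-fold higher in B-type and at least 5.83-fold higher in A-type fibroblasts, with no test on that single unmeasured array. A few markers of other cells also differed between B-type and C-type fibroblasts. Of 12 capillary markers 2 were called higher in B-type and 0 lower, with a median difference of 0.30 over the list. Of 12 macrophage markers 1 was called higher and 0 lower, with a median of -0.11. The capillary markers Tek (3.57, limma adjusted p = 0.00695) and Ptprb (at least 5.31-fold, 0.00591) and the macrophage marker Ear1 (at least 6.36-fold, 0.0135) were higher in B-type, Ptprb and Ear1 not being well above background in C-type. Each of these 3 calls was lost without either B-type array, that of Ear1 also without C-type sample 2, and those of Ear1 and Ptprb with normexp (0.77, limma adjusted p = 0.204, and 0.69, 0.249). The part of these markers in the Fabp4 difference was not tested.

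Pparg was 0.96 higher in B-type than in C-type fibroblasts (interval 0.05 to 1.86, limma adjusted p = 0.30), and its 4 A-type and B-type arrays all lay above both C-type arrays. Plin2 ran the other way, 0.73 lower in B-type than in C-type (interval -1.40 to -0.05, limma adjusted p = 0.30), with both C-type arrays above all A-type and B-type arrays. For Plin3, Lpl and Cebpa, which were measured tightly, no interval between types reached beyond 1.34 log2 units in either direction. For Plin1, Plin4, Cd36, Fabp4 and Fabp5, intervals between types reached beyond 2 log2 units, so differences of that size are not excluded for them. A-type and B-type fibroblasts were closest for Pparg, at -0.08 (interval -0.99 to 0.82).

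**Figure D3:**
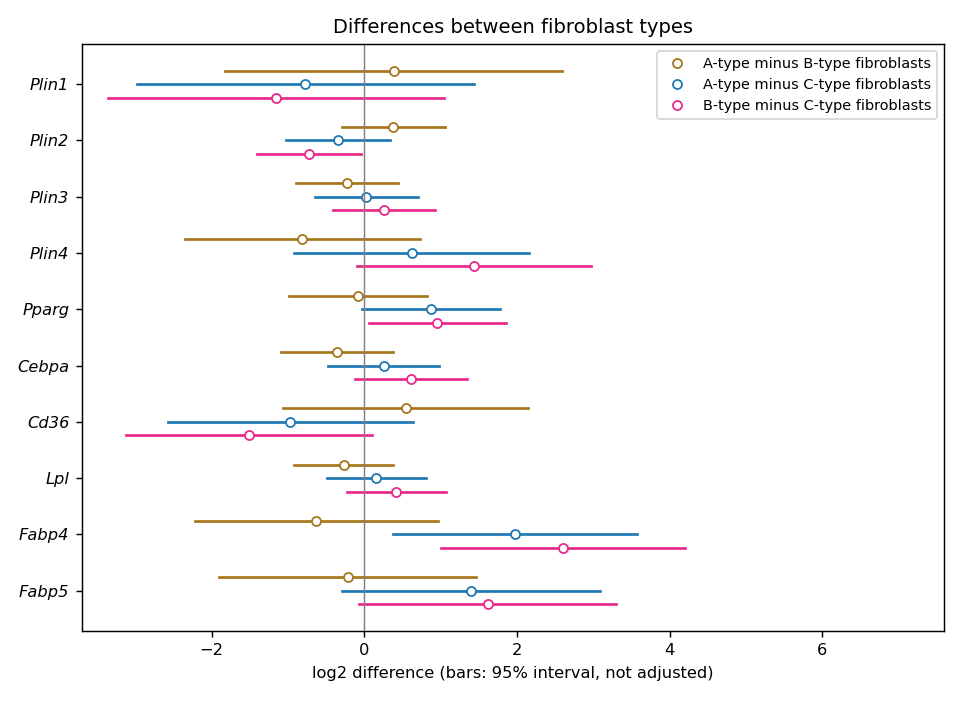
Log2 differences between fibroblast types (horizontal axis) for the 10 genes, as A-type minus B-type, A-type minus C-type and B-type minus C-type, with unadjusted 95% intervals of the limma fit. None was called; Fabp4 intervals lie right of 0 against C-type, and Cd36 was below background in A-type and B-type fibroblasts, so its differences are not measured levels.

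By group mean, Pparg, Cebpa, Lpl, Fabp4 and Fabp5 had the same order, with pulmonary cells first, then B-type, A-type and C-type fibroblasts. Neighbouring fibroblast types in that order did not differ beyond the test for any of them. Plin2 and Cd36 had C-type as the highest fibroblast type. Over the 6 fibroblast arrays alone, as a description, Pparg correlated with Fabp4 at 0.92 and with Fabp5 at 0.86, and with Plin2 at -0.84. Those points share the labelling and slide, and C-type sample 2, which had the lowest 75th percentile of intensity, was lowest for Pparg, Fabp4 and Fabp5 alike. Genes with the most similar profile over the 8 arrays were Dusp2, Cd101 and Cd14 for Plin2 (r 0.990 to 0.998), and Usp2, Tsnax and Rhou for Plin3 (0.992 to 0.994). For Pparg they were Shtn1, Ehd4 and Dbndd2 (0.995 to 0.997), for Cebpa Tspan7, Trib2 and Ociad2 (0.987 to 0.989), and for Lpl Ccdc81, Siglece and Shisa5 (0.976 to 0.981). Cd36 was closest to Nckap5, Rnase6 and DXBay18 (0.994 to 0.997), Fabp4 to Fam107b, Cdk17 and Cyp4b1 (0.990 to 0.995), and Fabp5 to Psmb8, Akap10 and Rsph1 (0.987 to 0.993). The dim Plin1 was closest to Sema5b, Zfp526 and Pde4d (0.903 to 0.927). Where a member lay far from pulmonary cells, r can largely follow that gap, and shared regulation was not tested. On C-type sample 2, Shtn1 (-5.36), Cyp4b1 (-5.41) and Rsph1 (-5.59) lay below the floor of that array.

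Around these members, each list of the wider lipid pathway, other than the lipofibroblast signals, had genes called in both directions against pulmonary cells, where 20.6% of all genes were called higher and 16.2% lower. Other droplet proteins had 2 of 11 tested genes called higher and 4 lower in fibroblasts. The lower ones included Cidec, a droplet fusion protein that also marks alveolar macrophages, at -4.40 ± 0.21 (SE, limma adjusted p = 2.5e-05) and at -8.08 on its other probe. Hilpda, an inhibitor of adipose triglyceride lipase, was at -2.61, and Cidea, related to Cidec, at -1.28, both called by limma. Among fatty acid transport and activation genes, 2 of 17 were higher and 3 lower. Fabp1, the liver-type carrier, was at least 30.7-fold lower, and the very long-chain acyl-CoA synthetase Slc27a2 at least 2.40-fold lower, the call of which was lost without pulmonary sample 1 (-1.55, limma adjusted p = 0.148) or A-type sample 2 (-2.22, 0.0507) and with normexp (-0.36, 0.303). Both were kept for testing only through pulmonary cells, so their direction was built in. Slc27a3, of the same family, was 10.8-fold higher in fibroblasts (3.43 ± 0.41, SE, limma adjusted p = 0.00083).

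Lipoprotein handling had 4 of 13 genes called higher and 4 lower. Gpihbp1, the endothelial protein that carries Lpl to the capillary lumen, was 15.6-fold lower in fibroblasts (-3.96 ± 0.28, SE, limma adjusted p = 9.1e-05), in contrast to the 1.72-fold of Lpl. The endothelial lipase Lipg was at least 2.32-fold lower and the scavenger receptor Msr1 at least 5.78-fold lower, both again kept only through pulmonary cells. Triglyceride synthesis had 4 of 18 higher and 6 lower, with the phosphatidate phosphatase Lpin1 at -1.94 and the desaturase Scd1 at -1.89, both called by limma. Its relative Lpin3 was at 1.99 (limma adjusted p = 0.0465), a call lost without pulmonary sample 1 (1.24, 0.281) or any 1 A-type or B-type array (0.0815 to 0.0946). Lipolysis and fatty acid oxidation had 3 of 16 higher and 3 lower, led by Pdk4, a brake on glucose oxidation, at 1.88. Hormone-sensitive lipase Lipe was at -1.46, and its limma call was lost without pulmonary sample 1 (-0.97, adjusted p = 0.109), A-type sample 1 (0.0512) or B-type sample 1 (0.0505). The mitochondrial carnitine enzyme Cpt2 was at 1.56 on its brighter probe but -0.21 on another, and the call was lost without any 1 array other than pulmonary sample 2, falling to 0.50 without pulmonary sample 1 (limma adjusted p = 0.138).

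The transcription partners of Pparg and Cebpa had 6 of 19 genes higher in fibroblasts and 2 lower, of which Cebpe was kept only through pulmonary cells. Zfp423, a preadipocyte commitment factor, was 8.92-fold higher (3.16 ± 0.24, SE, limma adjusted p = 0.00011). Cebpd, an early adipogenic relative of Cebpa, was 7.25-fold higher (2.86), and Klf15, a glucocorticoid-induced factor, 5.84-fold higher (2.55), while Pparg and Cebpa themselves were lower. Of the lipofibroblast signals, 8 of 11 were called higher and 0 lower by limma in the average over types, 20.6% of all genes being called higher. By type, 7 were higher and 0 lower in A-type, 7 higher and 2 lower in B-type, and 8 higher and 0 lower in C-type fibroblasts. The 2 lower in B-type were Npnt (-3.45, limma adjusted p = 0.000345) and the receptor Fgfr2 (-1.25, 0.0288), and the Fgfr2 call was lost without either B-type array or pulmonary sample 1 (0.0707 to 0.149), with median scaling (0.065), the authors' table (0.0655), no filter (0.0539) or the 4 compared arrays alone (0.0623). Osr1, a mesenchymal transcription factor, was 13.5-fold higher and Fgf10, a ligand linked to lipofibroblast development in mouse lung, 10.0-fold higher. Pthlh, the parathyroid hormone-related ligand, was 12.7-fold higher on measured means and 10.1-fold with the floor, 1 of 2 pulmonary arrays having measured it. Pthlh, counted among the signals called higher, was kept for testing only through fibroblasts, so the filter favoured this direction. Of 11 adipocyte markers on the array, 7 passed the background filter and were tested. Of these, 4 were lower, including the shared Cidec, Cidea and Lipe. The 2 higher were Slc36a2 (1.87) and Adrb3 (1.71 on its brighter probe and 0.15 on another). In B-type fibroblasts 0 were higher and 3 lower, with Slc36a2 at 0.19 (limma adjusted p = 0.615) and Adrb3, on its brighter probe, at 0.10 (0.86). Both were called in A-type (2.14 and 1.74) and C-type fibroblasts (3.29 and 3.28). Summed adipocyte markers were 16.5 and 17.5 in A-type, 5.49 and 5.73 in B-type and 34.3 and 41.0 in C-type fibroblasts, against 9.30 and 11.6 in pulmonary cells. Slc36a2 alone made up most of this sum on every fibroblast array, so the order of the types is largely that of 1 gene.

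**Figure D4:**
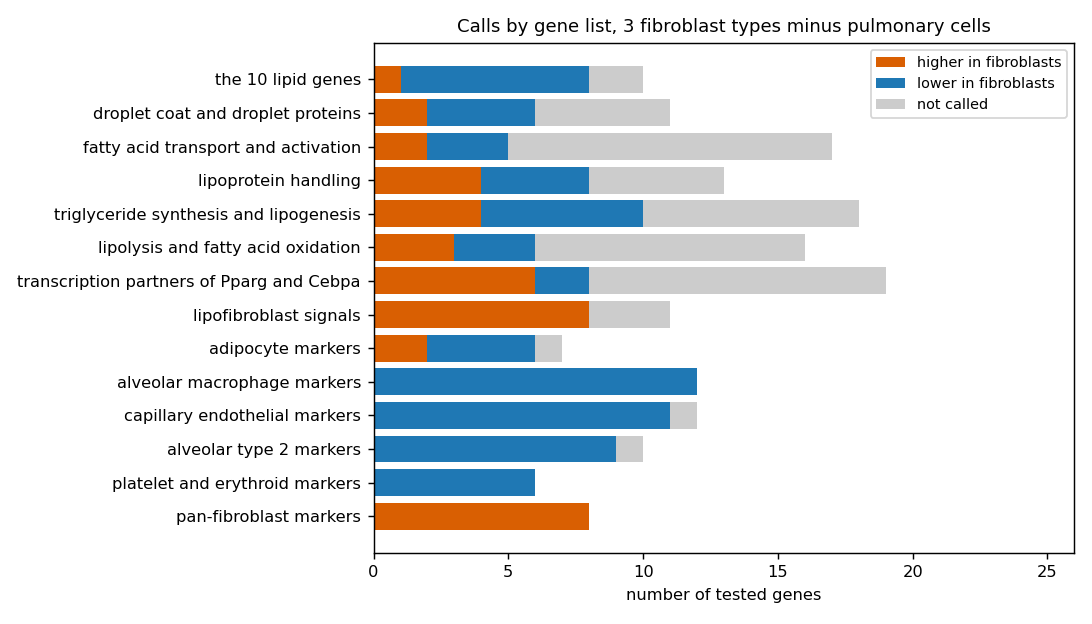
Number of tested genes (horizontal axis) called higher in fibroblasts, called lower in fibroblasts or not called, for each gene list, in the 3 fibroblast types minus pulmonary single cells. In this average over types, lipofibroblast signals and pan-fibroblast markers have no gene called lower, and the lists of macrophage, endothelial, type 2 and blood cell markers have none called higher; Cidec, Cidea, Lipe, Fabp1 and Gpihbp1 each stand in more than 1 list.

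Some genes of the wider lists were called between the fibroblast types. Npnt (nephronectin), an integrin ligand of the alveolar interstitium, stood at 3.05 and 3.22 in A-type, -0.04 and 0.42 in B-type and 6.05 and 6.43 in C-type fibroblasts. Those 3 pairs were far apart, with a B-type minus C-type difference of -6.05 ± 0.30 (SE, limma adjusted p = 0.0018), 66.2-fold. The A-type minus C-type call (-3.11, limma adjusted p = 0.026) was lost without either A-type or B-type array or without C-type sample 2. It was also lost with no filter (0.0604), the replicate block (0.0524) and the 4 compared arrays alone (0.115). Limch1, an actomyosin regulator, was 10.2-fold lower in B-type than in C-type fibroblasts. The fatty acid transporter Slc27a6 stood at -3.98 and -3.98 in B-type, not well above background, and at 0.49 and 0.85 in C-type fibroblasts, at least 23.6-fold lower in B-type. Slc27a6 was kept for testing only through A-type and C-type fibroblasts, so the filter favoured this direction. Gpam, the mitochondrial enzyme that begins triglyceride synthesis, was 5.69-fold lower in B-type than in C-type, and the carboxylesterase Ces1d, a triglyceride hydrolase, 5.63-fold lower.

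Ebf1 and Ebf2, factors of preadipocytes, ran the other way. Ebf1 was 10.2-fold higher in B-type and 4.97-fold higher in A-type than in C-type fibroblasts. Ebf2 was at least 8.19-fold higher in B-type and at least 4.02-fold higher in A-type than in C-type fibroblasts, where neither array measured it. Ebf2 was kept for testing only through A-type and B-type fibroblasts, so its direction against C-type was built in. The B-type minus C-type calls of Limch1, Ebf1 and Ebf2 were lost without either B-type array, at limma adjusted p-values of 0.061 to 0.0756, and that of Slc27a6 without B-type sample 1 (0.0583). Those of Gpam and Ces1d were lost without either A-type or B-type array or C-type sample 2, and that of Ces1d also without C-type sample 1. With the 4 compared arrays alone both were lost (limma adjusted p = 0.0915 for Gpam and 0.053 for Ces1d). The Gpam call was also lost with no filter (0.0517) and the replicate block (0.0524). The A-type minus C-type calls of both Ebf genes were lost without either A-type or B-type array or C-type sample 2. Normexp background correction lost them too (0.76 for Ebf1, limma adjusted p = 0.154, and 0.69 for Ebf2, 0.305). So did quantile normalization, no filter, testing every probe, the replicate block and the 4 compared arrays alone (limma adjusted p 0.0593 to 0.116). The Ebf1 call was also lost with median scaling (0.053) and the authors' table (0.0531). Of the adipocyte markers, Slc36a2, an amino acid transporter, stood at 1.97 and 1.82 in B-type and 4.88 and 5.11 in C-type fibroblasts, a difference of -3.10 (limma adjusted p = 0.00428). Adrb3, the beta-3 adrenergic receptor, stood at -2.22 and -1.59 in B-type and 1.23 and 1.31 in C-type fibroblasts on its brighter probe. That difference was -3.17 (limma adjusted p = 0.00959), but -1.86 (0.0146) with the probes of each gene averaged. Both calls were lost without either B-type array, and that of Adrb3 also without C-type sample 2, at limma adjusted p-values of 0.0501 to 0.107. Beside these, the type 2 marker Sftpc was 3.58 lower in B-type than in C-type fibroblasts (limma adjusted p = 0.034) and Dcn was 2.37 higher (0.041). Sftpc and Dcn were the only genes called there among 10 type 2 and 8 pan-fibroblast markers. Tek, Ptprb and Ear1 were higher as given above. The Sftpc and Dcn calls were lost without any 1 of the A-type, B-type or pulmonary arrays, and that of Dcn also without C-type sample 2. Both were also lost with no filter, the replicate block and the 4 compared arrays alone, and that of Dcn when every probe was tested. The part of these markers in the differences was not tested.

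**Figure D5:**
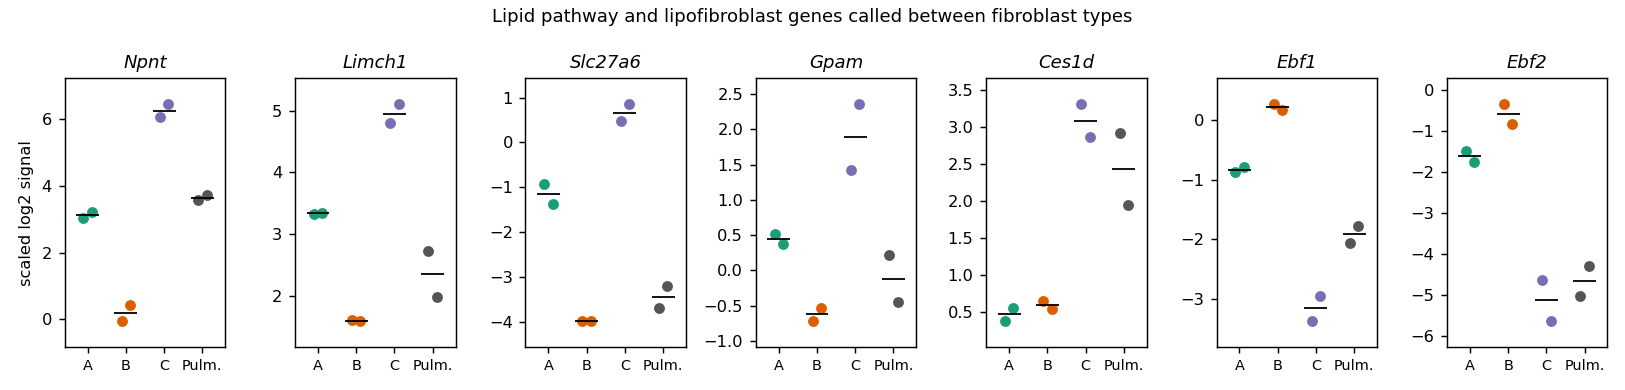
Scaled log2 signal (vertical axis, a scale of its own for each gene) of the 7 genes of the lipid pathway and lipofibroblast lists called between fibroblast types, on each array, with lines at group means and A-, B- and C-type fibroblasts left of pulmonary cells. Npnt, Limch1, Slc27a6, Gpam and Ces1d were called lower in B-type than in C-type fibroblasts, and Ebf1 and Ebf2 higher; Slc27a6 in B-type and Ebf2 in C-type fibroblasts were not well above background.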

How the data were processed

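Total RNA was amplified from 10 ng per sample and labelled with Cy3, per the labels' protocols. Per the file headers and the submitters' processing notes, Agilent Feature Extraction 10.10.1.1 made the deposited intensity values, and the background-subtracted processed signal was used with the deposited background flags. The authors' deposited table holds log2 values that equalled log2 of the processed signal minus 1 constant per array, within 0.02 for 100% of 55653 probes, with a median of 4.84 in each column, so it served as an alternative; the reason for that scaling was not stated. Array signal has no read depth, and the number of arrays limits the precision.

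Spots of a probe were averaged without outlier-flagged spots, 28 probes left out, and log2 signal was centred on each array's 75th percentile. Genes were named through accession or symbol with RefSeq (GRCm38.p6). A gene was represented by its brightest probe well above background on both arrays of at least 1 group, leaving 17508 genes. limma 3.58.1 (R 4.3.3) fitted 4 group means to all 8 arrays with 7 contrasts, and p-values were Benjamini-Hochberg adjusted over all genes. The fit was tested on simulated data in which each gene had the same spread in all groups. The real groups differed in spread, so that run checks the code and not the calls reported here. Replicate numbers were not used to pair samples. Deviations of equal numbers correlated at -0.085 to 0.058, which shows no pairing but cannot exclude shared mice or a shared sort.

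The members, lists, tests and alternatives were chosen with earlier results of these data known. Named genes were all members with every probe, the 3 most similar genes of each (those of Plin4 are not reported here), and in each list up to 3 called genes with the largest difference from pulmonary cells and up to 2 between types; Sftpc, Dcn, Tek, Ptprb, Ear1, Slc36a2 and Adrb3 between types, Fgfr2, Cebpe, and the marker genes named beside the groups, were named after their values were seen. Alternatives covered scaling, background correction, filters, probe rule, variance model, replicate block and single arrays left out.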

Additional observations from a re-analysis of the deposited data

Results flagged for a closer look

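No gene of the set was flagged. Wider pathway genes were flagged because they differed between fibroblast types by limma's test of the difference itself. For B-type minus C-type, the log2 differences were -6.05 for Npnt (limma adjusted p = 0.00177), -4.65 for Slc27a6 (0.00315), -3.35 for Limch1 (0.00564), -2.51 for Gpam (0.0262), -2.49 for Ces1d (0.0236), 4.54 for Ebf2 (0.00534) and 3.36 for Ebf1 (0.00428). For A-type minus C-type they were -3.11 for Npnt (limma adjusted p = 0.0264), 3.52 for Ebf2 (0.0372) and 2.31 for Ebf1 (0.0372). Ebf2 passed the filter only through A-type and B-type fibroblasts and Slc27a6 only through A-type and C-type fibroblasts, which favoured their directions. With 2 arrays per group, single outlying arrays were not tested for.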

How the results depend on the processing

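The 10 genes gave 1376 comparisons of a setting with the reported value, of which 1279 kept direction and call, 43 lost a call, 25 gained one and 29 turned sign, all 29 among uncalled differences. The count of lipid genes called against pulmonary cells over all types was 6 to 8 in every setting, the 6 arising with a filter that removed Cd36 and Fabp4. Over all settings it was 4 to 8 in A-type, 3 to 8 in B-type and 6 to 8 in C-type fibroblasts. Leaving out 1 array in turn gave 4 to 7, 3 to 7 and 7 to 8 in that order, and 0 to 1 for A-type minus C-type and for B-type minus C-type. The 1 was Fabp4 without C-type sample 1, when the C-type arm is 1 array below background whose spread is assumed to be that of the other groups.

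Sign turned for Plin1 with the percentile over bright probes (-0.15 over all types, -0.26 in A-type), for Plin4 in C-type fibroblasts with median scaling (0.35), quantile normalization (0.35), normexp (0.13) and the authors' table (0.35), and for Plin3, A-type minus C-type, with median scaling (-0.0453), quantile normalization (-0.0589) and the authors' table (-0.045). With 1 array left out, Plin1 ranged from -0.79 to 1.11 over all types, -0.92 to 0.98 in A-type, -1.30 to 0.59 in B-type and -0.52 to 2.13 in C-type fibroblasts, -0.0014 to 0.77 for A-type minus B-type, -2.10 to 0.55 for A-type minus C-type and -2.48 to 0.17 for B-type minus C-type. Plin4 ranged from -0.17 to 1.43 over all types, -0.23 to 1.36 in A-type and -0.85 to 0.74 in C-type fibroblasts, and -0.12 to 1.35 for A-type minus C-type. Cd36, A-type minus B-type, ranged from -0.27 to 1.35, and Plin3, A-type minus C-type, from -0.16 to 0.21. The cause was not tested.

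Over all genes, 56.0% of the 6431 calls against pulmonary cells were higher; this was 71.8% with median scaling, 71.9% with the authors' table, 39.3% with the percentile over bright probes and 70.8% with the stricter filter. Testing every probe gave 10263 calls over all types and 7849 in C-type fibroblasts, and the 4 compared arrays alone gave 2242 in C-type. A-type minus B-type gave 22 calls with normexp and 4 with a trended robust variance. A-type minus C-type gave 73 calls, but 176 with normexp, 1 with no filter, 28 over probes, 140 with the trended robust variance and 0 with the compared arrays alone. B-type minus C-type gave 425 calls, but 253 with no filter and 155 with the compared arrays alone. Leaving out 1 array gave 2150 to 6881 calls in A-type and 2335 to 7104 in B-type fibroblasts, 0 to 480 for A-type minus C-type and 2 to 912 for B-type minus C-type.

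No pairing of samples by replicate number was visible. With the replicate block, A-type minus C-type gave 0 calls, Lpl over all types had a limma adjusted p of 0.0584 and Fabp4 in B-type fibroblasts 0.0625. A slide block could not be fitted, because each pulmonary array lay on a slide with no fibroblast array, and the compared arrays of the all-types comparison are all 8. Plin3 in C-type fibroblasts lost its call with the compared arrays alone (limma adjusted p = 0.105). Dim probes limit Cd36, Fabp4, Plin1 and Plin4.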
